A study of Mus musculus with 18 samples.

Results

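A set of 9 genes of blood monocytes was followed in mouse blood after gamma irradiation. F13a1, Fn1 and Cd14 stood for classical monocytes, Ace, Treml4, Nr4a1 and Spn for patrolling monocytes, and Csf1r and Adgre1 for both. The members were the probes whose gene name in the scanner files, controls left out, was one of these symbols. Of the 9 genes, 8 were found under their own symbol with 16 probes, and Adgre1 was found only under its older symbol Emr1 with 2 probes. These 9 stand among 21308 named genes on the array. Of their 18 probes, 17 met the filter for a test, a signal that the scanner software called well above background on 5 or more of the 18 arrays. The exception was a dim probe of Ace, which reached that signal on 0 arrays.

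RNA came from the blood of male C57BL/6N mice of 8 to 12 weeks of age, drawn from the heart 6 hours after exposure to a cesium source. The groups were sham-treated mice at 0 Gy (7 arrays), mice given 2 Gy (5 arrays) and mice given 8 Gy (6 arrays). The labels list no transgene or other treatment. RNA was purified with a RiboPure kit for 15 arrays and a PAXgene kit for 3, of which 2 were at 0 Gy and 1 at 2 Gy. Globin RNA was removed in all groups. The labels do not say that each array is a separate animal, so p-values measure the spread between these samples.

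Monocytes of mouse blood fall into a classical class, which enters inflamed tissue, and a patrolling class, which crawls along the vessel wall. Both arise from bone marrow and carry the receptor of colony stimulating factor 1, encoded by Csf1r. Patrolling monocytes arise largely from classical ones and need the nuclear receptor encoded by Nr4a1. Blood holds many other cells, and in whole blood a lower level from fewer monocytes and one from less RNA per monocyte cannot be told apart.

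The first 30 bases of a 60-base probe are shown for members whose results turn on which probe was read. Ace, angiotensin converting enzyme, is shown with both of its tested probes because their fitted differences at 2 Gy had opposite signs, though neither passed. The first lies at chr11:106098125-106098184 and the second at chr11:106095098-106097084, both on the plus strand in the files' mm7 positions. No annotation of that build was used here, so exons are not given. The probes of Treml4 (chr17:46417732-46417791, plus strand) and Nr4a1 (chr15:101260484-101260543, plus strand) follow because these 2 genes varied together. That of Spn (chr7:123230357-123230416, minus strand) is the brightest of 3. All letters are lower case because no position within them is singled out.
Ace, probe A_52_P68028: atgggggacatggtgtttgagtggaacata
Ace, probe A_52_P72297: ttccacgttcctgcgaacgtgccatacgtc
Treml4, probe A_51_P468558: aaaggccactatgacggggtcacattttat
Nr4a1, probe A_51_P239654: ctcttccgctctccttccatgtgtacataa
Spn, probe A_52_P186033: cgtggggtcgggaaaattaaatgatctgta

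Levels are given as log2 of the processed signal relative to the 75th percentile of the array and differences are log2 fold changes. They compare arrays for 1 probe, not 1 gene with another. The 75th percentile itself lay between 138 and 425 signal units on the sham arrays, between 46.4 and 186 on those of 2 Gy, and between 58.4 and 232 on those of 8 Gy, so the brightest arrays were sham ones. There were 3 arrays that stood apart. The array labelled 0 Gy replicate 5 had a level of the p53 target Cdkn1a of 1.28, against -4.08 to -1.46 on the other 0 Gy arrays and -0.30 to 2.67 on the irradiated ones. The arrays 0 Gy replicate 4 and 2 Gy replicate 3 had a median correlation with the other arrays of 0.834 and 0.847, the lowest of the 18. The choice of these arrays came from the data, and results that rest on them are given with and without them.

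No member passed an adjusted p of 0.05 in any of the 3 comparisons of dose. At 8 Gy against 0 Gy 0 of 9 members were called in the limma fit, beside 11.9% of all 13677 genes tested. An unadjusted p under 0.05 was found for 2 members (Cd14 and Spn), beside 4521 of the 13677 genes. At 2 Gy against 0 Gy 0 of 9 were called, beside 0.0658% of all genes. Here 2 members had an unadjusted p under 0.05 (Fn1 and Ace), beside 2800 of the 13677 genes. Between 8 and 2 Gy 0 of 9 were called, beside 0% of all genes. Unadjusted p was under 0.05 for 4 members (Fn1, Cd14, Ace and Adgre1), beside 423 of the 13677 genes. The groups overlapped for every member in each comparison. With so few calls at 2 Gy in the whole table, a member's failure to pass there says little.

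**Figure D1:**
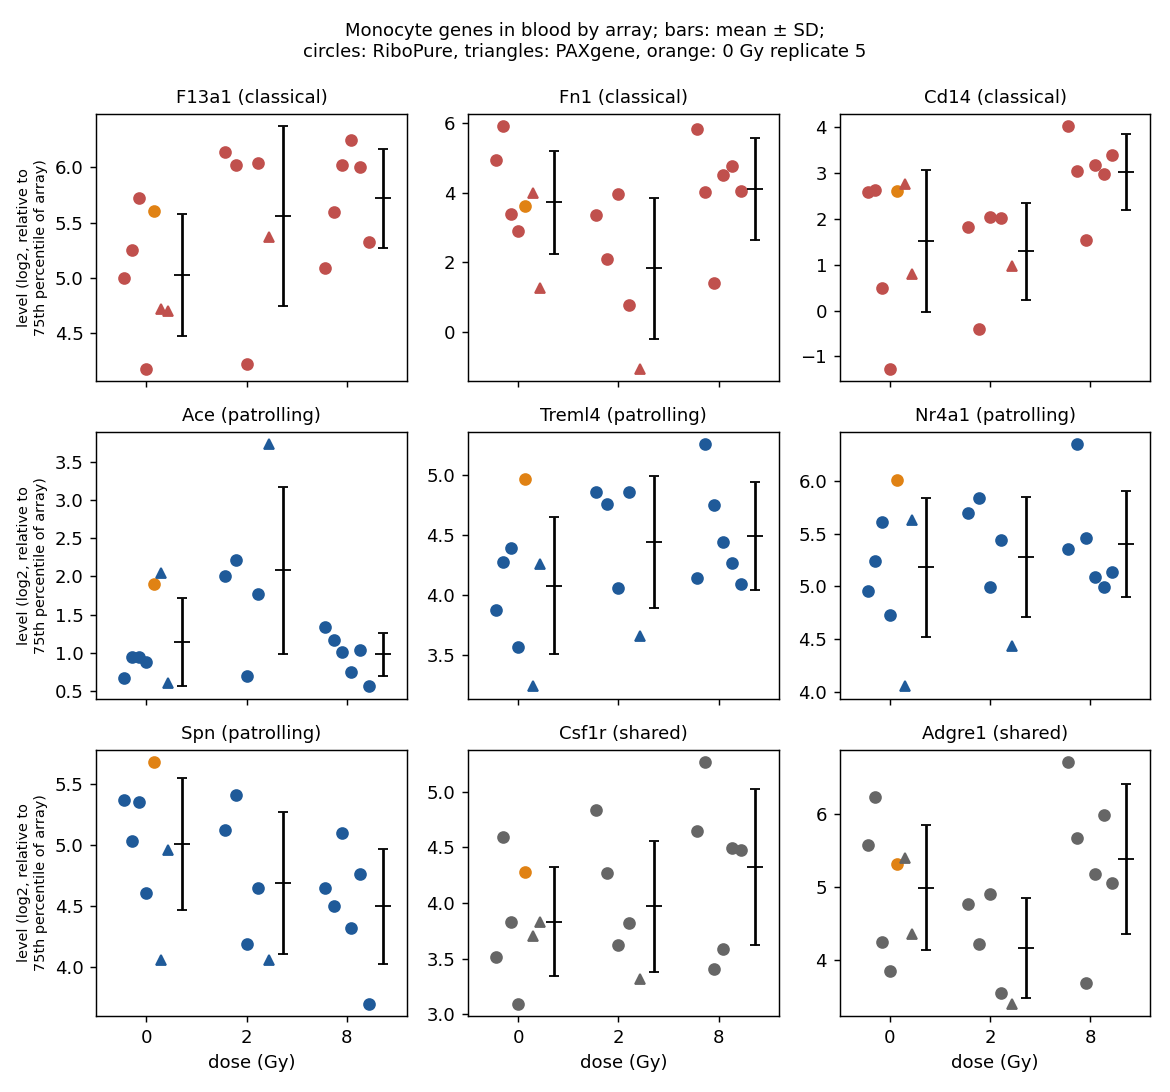
Level of each member on each of 18 arrays (log2, relative to the 75th percentile of the array) by dose in Gy; circles are RiboPure arrays, triangles PAXgene arrays, the orange circle is the array labelled 0 Gy replicate 5, and bars give the mean ± SD of the group. For Cd14, 5 of 6 arrays at 8 Gy lie above all 0 Gy arrays, and for every member the groups overlap.

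Among the classical genes, Cd14 encodes a surface co-receptor for bacterial lipopolysaccharide. Its levels at 0 Gy ran from -1.27 through a median of 2.59 to 2.76. At 2 Gy they were 1.82, -0.41, 2.04, 2.02 and 0.96. At 8 Gy they ran from 1.54 through a median of 3.1 to 4.01. At 8 Gy 5 of 6 arrays lay above the highest 0 Gy array, and at 2 Gy 0 of 5 did so. The fitted difference at 8 Gy was 1.53 ± 0.68 (log2, SE), with a 95% interval of 0.10 to 2.97 and an adjusted p of 0.128. With the slide as a fixed term it was -0.20, and without the 3 arrays that stood apart it was 1.11 ± 0.63 (adjusted p 0.197). At 2 Gy the difference was -0.22 ± 0.68. Cd14 is also made by neutrophils, and of 15 neutrophil markers 12 rose at 8 Gy and none fell (13 without 0 Gy replicate 5), with a median of 2.31, beside 7.56% of all genes higher and 4.36% lower. The mean of that list, relative to its 0 Gy mean, lay between -0.95 and 1.98 on sham arrays and between 0.95 and 3.37 on arrays of 8 Gy. Within dose groups the level of Cd14 had r = 0.12 with it over 18 arrays (permutation p 0.659, adjusted 0.894, rho -0.04), and its part in the difference was not tested.

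F13a1 encodes the A subunit of coagulation factor XIII, which cross-links fibrin and is carried by monocytes and platelets. Its levels ran from 4.18 through a median of 5.00 to 5.72 at 0 Gy. They were 6.14, 6.02, 4.22, 6.04 and 5.37 at 2 Gy, and ran from 5.09 through 5.80 to 6.25 at 8 Gy. The lowest array at 0 Gy was replicate 4 and the lowest at 2 Gy was replicate 3, the pair that stood apart. Levels above all 0 Gy arrays were seen on 3 of 5 arrays of 2 Gy and 3 of 6 arrays of 8 Gy. The fitted differences were 0.50 ± 0.34 at 2 Gy (adjusted p 0.400) and 0.59 ± 0.34 at 8 Gy (adjusted p 0.240). Without the 3 arrays that stood apart they were 0.72 ± 0.24 (adjusted p 0.0505) and 0.38 ± 0.23 (adjusted p 0.234). Of 11 measured platelet markers 4 rose at 8 Gy, Pf4 and Itgb3 among them, and none fell, beside 7.56% of all genes higher, and the median of the list was 0.99. Without 0 Gy replicate 5 all 11 rose at 8 Gy, beside 15.3% of all genes higher in that fit. The mean of the platelet list lay between -1.08 and 1.04 on sham arrays, between -0.22 and 1.48 on those of 2 Gy, and between 0.22 and 1.37 on those of 8 Gy.

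Fn1 encodes fibronectin, an adhesive protein of plasma and matrix. It had 3 probes, and the brightest had 10 spots on each array. Its levels at 0 Gy ran from 1.25 through a median of 3.63 to 5.91. At 2 Gy they were 3.36, 2.09, 3.97, 0.78 and -1.07, and at 8 Gy they ran from 1.41 through 4.28 to 5.83. The SD within a group was 1.47 to 2.03, so single arrays differed widely. The fitted difference at 2 Gy was -2.08 ± 0.78, with a 95% interval of -3.72 to -0.45 and an adjusted p of 0.171. At 2 Gy 2 of 5 arrays lay below all 0 Gy arrays. A second probe gave -2.32 ± 0.71, and 4 of the 5 arrays of 2 Gy measured it above background. The third was measured on only 2 of these 5 arrays, and its fitted difference is not used. Without the 3 arrays that stood apart the difference was -2.98 ± 0.86 with an adjusted p of 0.031. That fit called 2459 of all 13677 genes at 2 Gy, against 9 in the reported fit. At 8 Gy the reported difference of Fn1 was -0.27 ± 0.78 (adjusted p 0.837). The lowest array at 2 Gy was the PAXgene one, and the fitted kit difference for Fn1, PAXgene minus RiboPure, was -2.29 ± 0.88 with an adjusted p of 0.160. No member was called between the kits in the limma fit, beside 3.79% of all genes, and 3 had an unadjusted p under 0.05 (Fn1, Ace and Spn). On RiboPure arrays alone Fn1 differed by -1.60 at 2 Gy (adjusted p 0.440).

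Ace was the patrolling gene with the largest fitted difference at 2 Gy. The enzyme cleaves angiotensin I and sits on the surface of patrolling monocytes and endothelium. By the brighter probe its levels ran from 0.60 through a median of 0.94 to 2.04 at 0 Gy. At 2 Gy they were 2.00, 2.21, 0.70, 1.77 and 3.73. At 8 Gy they ran only from 0.56 through 1.02 to 1.34. The fitted difference at 2 Gy was 1.02 ± 0.35 (95% interval 0.28 to 1.76, adjusted p 0.153), and at 8 Gy it was 0.10 ± 0.35 (adjusted p 0.874). The highest 2 Gy array was the PAXgene one, and on RiboPure arrays alone the difference was 0.60 (adjusted p 0.441). Without 0 Gy replicate 5, which at 1.90 was the second highest of its group, it was 1.21 ± 0.33 with an adjusted p of 0.0415. Without all 3 arrays that stood apart it was 1.53 ± 0.30 with an adjusted p of 0.00986. These fits called 962 and 2459 of all 13677 genes at 2 Gy, against 9 in the reported fit. Within the 3 slides that held sham and 2 Gy arrays, with 1 or 2 arrays on a side, Ace differed by 1.17, -1.20 and 1.68 and Fn1 by -3.18, 0.34 and -5.05, in the same order of slides. The middle one compares 0 Gy replicate 5 with 2 Gy replicate 3, which both stood apart.

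The second probe of Ace was dim at 2 Gy. All 7 sham arrays measured it well above background, as did 0 of 5 arrays of 2 Gy and 3 of 6 of 8 Gy. Its mean was -2.44 ± 0.47 (SD, n = 7) at 0 Gy and -3.00 ± 0.59 (SD, n = 5) at 2 Gy. Because no 2 Gy array measured it, the fold between group means is a bound, at least 1.14-fold lower at 2 Gy. This bound takes no account of the spread between arrays. In the limma fit of all probes the difference did not pass (adjusted p 0.297). The groups overlapped, and the lowest sham level, -3.15 on 0 Gy replicate 6, was called well above background. The highest 2 Gy level, -2.43 on replicate 2, was not. These calls thus did not follow the level alone, and the part of array brightness in them was not tested. The bound sets the 0 Gy mean against the lowest signal that was called well above background on each 2 Gy array, or the probe's own signal where that was higher. The probes carry different RNA accessions in the files, and the mean over both was 0.21 at 2 Gy (adjusted p 0.692).

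Spn encodes CD43, a sialic acid-rich surface protein that is high on patrolling monocytes and is also carried by T cells and neutrophils. Its levels ran from 4.06 through a median of 5.03 to 5.68 at 0 Gy. They were 5.12, 5.41, 4.19, 4.65 and 4.06 at 2 Gy, and ran from 3.70 through 4.58 to 5.10 at 8 Gy. Only 1 of 6 arrays at 8 Gy lay below all 0 Gy arrays. The fitted difference at 8 Gy was -0.71 ± 0.27, with a 95% interval of -1.29 to -0.13 and an adjusted p of 0.0869, and a second probe gave -0.65 ± 0.28. The third was well above background on only 4 of 7 sham and 2 of 6 arrays at 8 Gy, and its fitted difference is not used. At 2 Gy the difference was -0.39 ± 0.27 (adjusted p 0.421).

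The call on Spn at 8 Gy turned with the processing. Its adjusted p was 0.0208 after quantile normalization (-1.09), 0.0234 after the normexp background correction (-1.32), 0.0205 in the deposited table (-1.07) and 0.038 with array weights (-0.68). Without 0 Gy replicate 4 and 2 Gy replicate 3 it was 0.0389 (-0.87 ± 0.25). With brightness as a covariate it was 0.404 (-0.62), a setting in which no gene at all was called. Quantile normalization and the deposited table are close to 1 processing, because the sorted values of that table are nearly alike on every array. The sign of Spn was negative in all 17 alternatives, which count both, and in all 18 fits that left out 1 array. The 1 slide that held both sham and 8 Gy arrays (1 and 2 arrays) gave -0.66 for Spn and -0.23 for Cd14. At 8 Gy 0 of 12 T and NK cell markers passed in limma (2 at an unadjusted p under 0.05), with a median of -0.10, and without 0 Gy replicate 5 there was 1, which rose.

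**Figure D2:**
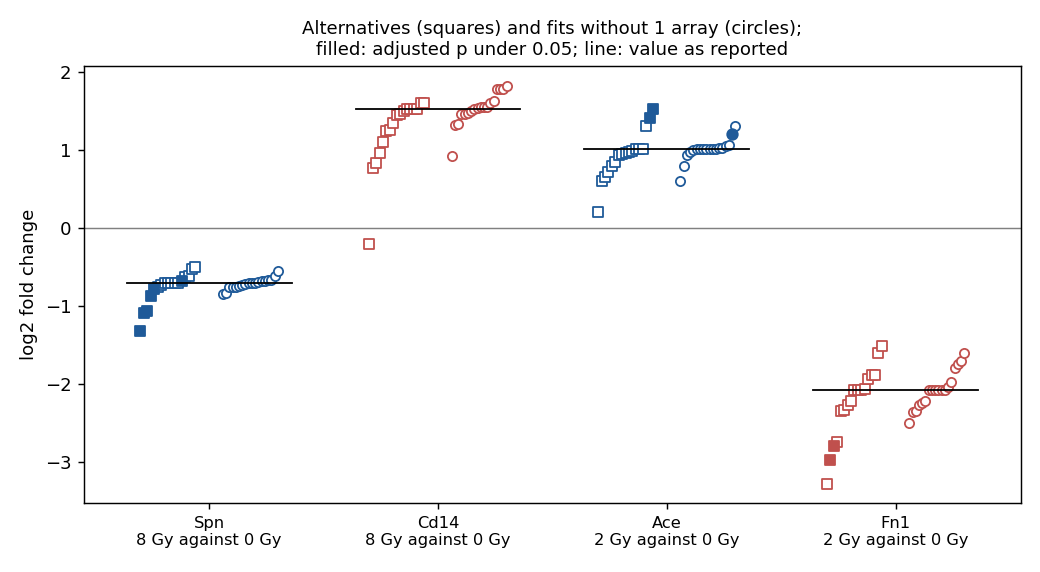
Log2 fold change of Spn and Cd14 at 8 Gy and of Ace and Fn1 at 2 Gy, each against 0 Gy, under 17 alternatives (squares) and with each of 18 arrays left out in turn (circles); filled symbols have an adjusted p under 0.05 and the line is the reported value. Spn stays between -1.32 and -0.50 with 6 filled squares, while Cd14 reaches -0.20 with the slide as a fixed term.

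Treml4 and Nr4a1 had small fitted differences at both doses. Treml4 encodes a receptor of the TREM family that marks patrolling monocytes and splenic macrophages. Its levels ran from 3.24 through a median of 4.26 to 4.97 at 0 Gy, and were 4.86, 4.76, 4.06, 4.86 and 3.66 at 2 Gy. At 8 Gy they ran from 4.09 through 4.36 to 5.26. The differences were 0.30 ± 0.28 at 2 Gy (95% interval -0.29 to 0.89, adjusted p 0.553) and 0.22 ± 0.28 at 8 Gy (-0.37 to 0.81, adjusted p 0.612).

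Nr4a1 encodes an orphan nuclear receptor that is also an immediate early gene. Its levels ran from 4.05 through a median of 5.24 to 6.01 at 0 Gy, and were 5.70, 5.84, 4.99, 5.44 and 4.43 at 2 Gy. At 8 Gy they ran from 4.99 through 5.24 to 6.35. The differences were 0.05 ± 0.31 at 2 Gy (95% interval -0.61 to 0.70, adjusted p 0.950) and 0.03 ± 0.31 at 8 Gy (-0.63 to 0.68, adjusted p 0.966). The interval at 8 Gy leaves room for a fold from 0.646 to 1.60. Quantile normalization, normexp and the deposited table turned the sign of both genes at 8 Gy, to between -0.59 and -0.11, and none of these passed.

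Csf1r and Adgre1 are shared by both classes. Levels of Csf1r ran from 3.09 through a median of 3.83 to 4.59 at 0 Gy, were 4.84, 4.27, 3.62, 3.82 and 3.32 at 2 Gy, and ran from 3.41 through 4.48 to 5.27 at 8 Gy. By its brightest probe the differences were 0.11 ± 0.34 at 2 Gy (adjusted p 0.876) and 0.38 ± 0.34 at 8 Gy (adjusted p 0.455). A second Csf1r probe, well above background on all arrays, gave -0.38 ± 0.24 at 2 Gy, the opposite sign, and 0.10 ± 0.24 at 8 Gy. Neither passed in the limma fit of all probes (adjusted p 0.37 and 0.801). A dimmer probe was well above background on only 2 arrays of 2 Gy and 3 of 8 Gy, and its fitted difference is not used. Adgre1 encodes an adhesion receptor that is widely used to mark macrophages. Its levels ran from 3.84 through 5.31 to 6.23 at 0 Gy, were 4.76, 4.21, 4.90, 3.54 and 3.39 at 2 Gy, and ran from 3.68 through 5.42 to 6.72 at 8 Gy. Again 2 of 5 arrays at 2 Gy lay below all 0 Gy arrays. By its brighter probe the differences of Adgre1 were -0.87 ± 0.49 at 2 Gy (adjusted p 0.319) and 0.26 ± 0.49 at 8 Gy (adjusted p 0.743). Its dimmer probe was well above background on 7 sham arrays, only 1 array of 2 Gy and 4 of 8 Gy. The fitted difference of that probe is not used.

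**Figure D3:**
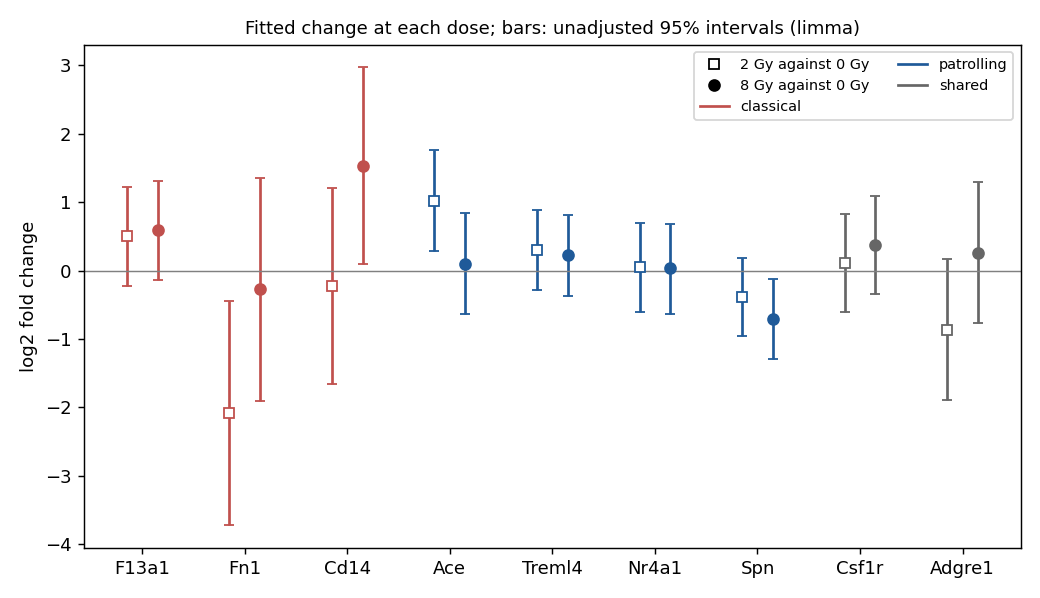
Fitted log2 fold change of each member at 2 Gy (open squares) and 8 Gy (filled circles) against 0 Gy, with unadjusted 95% intervals from limma; red marks classical, blue patrolling and grey shared genes. The intervals leave out 0 for Cd14 and Spn at 8 Gy and for Fn1 and Ace at 2 Gy, and no member passed after adjustment.

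Fn1, Cd14, Ace and Adgre1 differed more between 8 and 2 Gy than the other members. The difference, 8 Gy minus 2 Gy, was 1.81 ± 0.82 for Fn1, 1.76 ± 0.72 for Cd14, 1.13 ± 0.52 for Adgre1 and -0.92 ± 0.37 for Ace. Each had an adjusted p of 0.931, and 423 genes of the table had an unadjusted p under 0.05 in this comparison. Because both doses were set against the same 0 Gy arrays, their differences are not independent.

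The classical set was set against the patrolling set by the mean of its members. The mean fitted difference of the 3 classical genes minus that of the 4 patrolling genes was 0.71 at 8 Gy and -0.85 at 2 Gy. The genes of a set did not move alike. At 8 Gy F13a1, Fn1 and Cd14 had 0.59, -0.27 and 1.53, and Ace, Treml4, Nr4a1 and Spn had 0.10, 0.22, 0.03 and -0.71. At 2 Gy these values were 0.50, -2.08 and -0.22, and 1.02, 0.30, 0.05 and -0.39. On single arrays the classical mean minus the patrolling mean, each gene taken relative to its 0 Gy mean, ran from -1.18 through a median of -0.26 to 1.16 at 0 Gy. At 2 Gy it was -0.22, -1.55, 0.36, -0.80 and -1.78, and at 8 Gy it ran from -0.66 through 1.29 to 1.54. The SD between single arrays of a group was 0.87 to 0.98, and the shifts of the group means were not tested. At 8 Gy 4 of 6 arrays lay above all 0 Gy arrays and at 2 Gy 2 of 5 lay below them. With the slide as a fixed term the values were -0.11 and -1.59. The median difference at 8 Gy was 0.59 over the classical and 0.06 over the patrolling genes, beside 0.08 over all genes, and at 2 Gy it was -0.22 and 0.17, beside 0.06.

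Other genes of these classes were taken from lists. Of 19 measured further classical genes, 4 rose at 8 Gy and none fell, beside 7.56% of all genes higher and 4.36% lower, and the median was 0.37. Those that rose were Cebpd (2.00 ± 0.47, adjusted p 0.0213), a stress-responsive transcription factor, Cd177 (1.57 ± 0.37, adjusted p 0.0213), best known as a neutrophil surface protein, Sirpb1a (1.38 ± 0.39, adjusted p 0.0387) and the metalloproteinase gene Mmp19 (0.92 ± 0.26, adjusted p 0.0374). Sirpb1a has close relatives in the genome that could share its probe. Ccr2, the chemokine receptor for leaving the marrow, which is well known for this class and was named outside the rule, did not pass and had -0.28 ± 0.32. No probe was named Ly6c2 here.

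Of 18 measured further patrolling genes, 2 rose at 8 Gy and none fell, a share near that of all genes (7.56% higher), and the median was 0.05. They were Cd300ld, an immune receptor of the CD300 family (1.74 ± 0.37, adjusted p 0.0140), and Fcgr4, an activating Fc receptor that neutrophils also carry (1.62 ± 0.36, adjusted p 0.0179). Itgal (0.83 ± 0.30, adjusted p 0.0691), an integrin chain, and Pou2f2 (-0.71 ± 0.29, adjusted p 0.102), a transcription factor, did not pass. Cx3cr1, the fractalkine receptor that is best known for this class and was named outside the rule, had -0.79 ± 0.37 (adjusted p 0.144). Without 0 Gy replicate 5, 6 classical genes rose and 1 fell, and 4 patrolling genes rose, beside 15.3% of all genes higher and 7.3% lower in that fit, so the counts grew along with those of the whole table. Neutrophil markers moved in the same comparison as given beside Cd14, and their part in these counts was not tested.

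Upstream of the classes, 25 genes of the monocyte lineage and of the Csf1 receptor pathway were measured. At 8 Gy 5 rose and 1 fell, beside 7.56% of all genes higher and 4.36% lower, with a median of 0.42, and without 0 Gy replicate 5 there were 7 and 1. The genes that rose were Csf2rb (1.66 ± 0.42) and Csf2ra (1.16 ± 0.25), the chains of the GM-CSF receptor, Spi1 (1.49 ± 0.37), which encodes PU.1, Cebpb (1.10 ± 0.25), a factor needed for patrolling monocytes, and Tyrobp (1.18 ± 0.32), a signalling adaptor. The gene that fell was Irf8 (-1.16 ± 0.26), a factor for monocyte and dendritic cell fate that B cells also express. Of 9 B cell markers, 8 fell at 8 Gy, with a median of -3.23, and the part of B cells in the fall of Irf8 was not tested. Csf1, a ligand of the Csf1 receptor, also named outside the rule, had 0.78 ± 0.44 (adjusted p 0.228). At 2 Gy 0 genes of these 3 lists passed in limma (5 classical, 4 patrolling and 5 lineage genes at an unadjusted p under 0.05), and without 0 Gy replicate 5 4 classical, 2 patrolling and 0 lineage genes rose and none fell, beside 4.12% of all genes higher and 2.91% lower.

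Within dose groups the patrolling genes Treml4, Nr4a1 and Spn varied together, with Ace apart. No pair of classical genes passed after adjustment, while Fn1 and Cd14 each passed with the shared gene Adgre1. Each array's deviation from its dose group mean was correlated over 18 arrays for 36 pairs of members and for 63 pairs of a member with a marker list or with array brightness. Permutation tests within dose groups used 1e+05 resamples, and p was adjusted over these 99 relations. For r on fewer arrays the same deviations were kept, and dose group means were not taken anew without the arrays left out. With Pearson's r 10 relations passed, 5 of them between members. The closest pair was Treml4 and Nr4a1, with r = 0.94 (permutation p 1e-05, the smallest these resamples can give, adjusted 0.00099) and Spearman's rho = 0.90 (permutation p 3e-05, adjusted 0.00148). Without the arrays farthest out in Treml4 (0 Gy replicate 6 and 2 Gy replicate 5) r was 0.91. On the 15 RiboPure arrays it was 0.92, and without the 3 arrays that stood apart it was 0.93. Of 13666 genes measured on all arrays, each was the other's nearest, while the median r with Treml4 was 0.07.

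**Figure D4:**
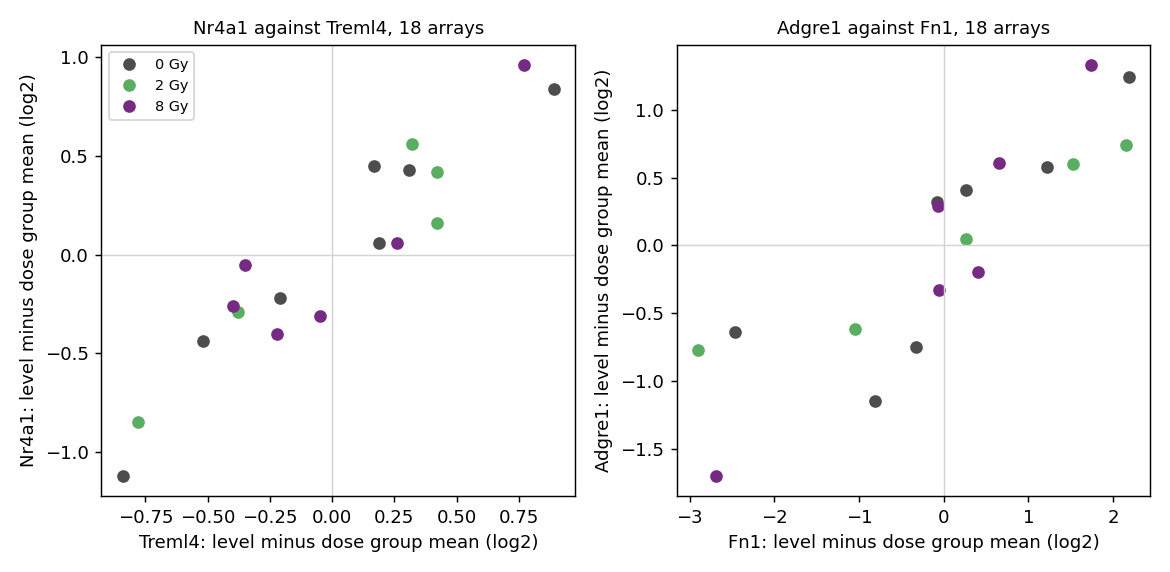
Deviation of the level from the dose group mean (log2) on 18 arrays, Nr4a1 against Treml4 on the left and Adgre1 against Fn1 on the right, coloured by dose. Pearson's r is 0.94 on the left and 0.87 on the right, and arrays of all doses lie along both trends.

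Spn went with this pair. Its r was 0.73 with Treml4 (permutation p 0.00198, adjusted 0.0218, rho 0.73, p 0.00245, adjusted 0.027) and 0.71 with Nr4a1 (permutation p 0.00307, adjusted 0.0304, rho 0.66, p 0.00753, adjusted 0.0621). Without the outermost arrays r was 0.60 with Treml4 and 0.71 with Nr4a1. On RiboPure arrays alone it was 0.61 and 0.56. Ace, the fourth patrolling gene, had r = -0.14 with Treml4 (permutation p 0.646, adjusted 0.888) and -0.20 with Nr4a1 (permutation p 0.486, adjusted 0.802). On RiboPure arrays these values were 0.55 and 0.56, and without the 3 arrays that stood apart they were -0.56 and -0.53, so its relation to the pair rests on single arrays.

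Fn1 went with Adgre1 rather than with F13a1. The r of Fn1 with Adgre1 was 0.87 (permutation p 2e-05, adjusted 0.00099, rho 0.91, p 1e-05, adjusted 0.00099), 0.84 without the outermost arrays and 0.92 on RiboPure arrays. Cd14 had r = 0.72 with Adgre1 (permutation p 0.00105, adjusted 0.0161, rho 0.72, p 0.00159, adjusted 0.0225), 0.79 without the outermost arrays and 0.72 on RiboPure arrays. With Fn1 it had r = 0.54 (permutation p 0.0263, adjusted 0.145, rho 0.56). F13a1 had r = -0.11 with Fn1 (permutation p 0.708, adjusted 0.947) and 0.01 with Cd14 (permutation p 0.961, adjusted 1).

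Adgre1, Fn1 and Cd14 also varied with markers of other cells, while Treml4, Nr4a1 and Spn passed with no marker list after adjustment. Treml4 had r = 0.60 with the platelet list (permutation p 0.0182, adjusted 0.113) and 0.53 with the neutrophil list (permutation p 0.0416, adjusted 0.206). For Nr4a1 these r were 0.45 and 0.30, and for Spn 0.36 and 0.28. With the mean of 17 measured macrophage and dendritic cell genes, r was 0.85 for Adgre1 (permutation p 0.00015, adjusted 0.00495, rho 0.84, p 0.00018), 0.78 for Fn1 (permutation p 0.00084, adjusted 0.0161, rho 0.79, p 0.00083) and 0.68 for Cd14 (permutation p 0.00092, adjusted 0.0161, rho 0.82, p 0.00011). On RiboPure arrays these were 0.85, 0.87 and 0.66, and without the outermost arrays 0.81, 0.77 and 0.80. That mean, relative to 0 Gy, lay between -0.92 and 0.56 on sham arrays, between -1.77 and 0.32 on those of 2 Gy, and between -1.71 and 1.41 on those of 8 Gy. At 2 Gy the median difference of the list was -0.88 and 0 of its genes passed in limma (7 at an unadjusted p under 0.05). Its complement genes C1qa (-3.08 ± 1.22) and C1qc (-3.21 ± 1.23), named after their values were seen, had adjusted p of 0.185 and 0.178 there. The one gene that passed at 8 Gy was Ccr7 (-1.51 ± 0.31, adjusted p 0.0136), a lymph node homing receptor that lymphocytes also carry. The part of tissue macrophage RNA in the levels of Fn1, Adgre1 and Cd14 was not tested.

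F13a1 varied with the platelet list at r = 0.78 (permutation p 0.00114, adjusted 0.0161) and rho = 0.66 (p 0.00681, adjusted 0.0613), and with the neutrophil list at r = 0.73 (permutation p 0.00189, adjusted 0.0218) and rho = 0.79 (p 8e-04, adjusted 0.0137). On RiboPure arrays r was 0.80 and 0.73. Without 2 Gy replicate 3 and 0 Gy replicate 4, the arrays farthest out, r was 0.57 and 0.68, so part of the first rests on those arrays. No member passed with the T and NK, B or erythroid lists or with array brightness by Pearson's r. By rho alone 2 relations passed, Fn1 with the erythroid list (-0.68, permutation p 0.00444, adjusted 0.044) and F13a1, a classical gene, with Treml4, a patrolling one (0.73, permutation p 0.00226, adjusted 0.027, r 0.62). With Spn, also a patrolling gene, F13a1 had r = 0.63 (permutation p 0.0104, adjusted 0.0858, rho 0.65), which did not pass.

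**Figure D5:**
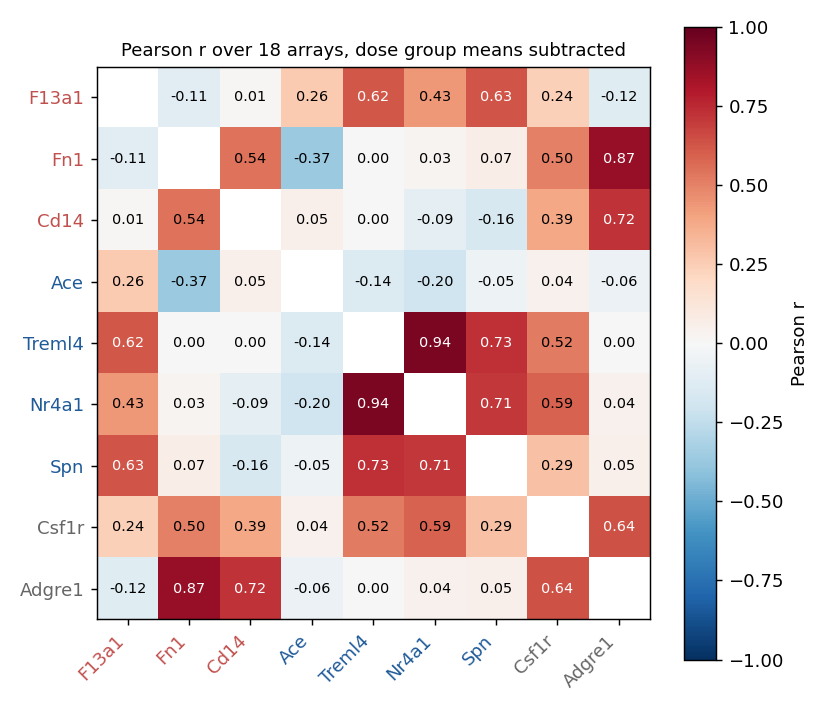
Pearson's r between members over 18 arrays after subtracting dose group means; label colours mark classical (red), patrolling (blue) and shared (grey) genes. Treml4, Nr4a1 and Spn form a group with r from 0.71 to 0.94. Fn1 and Cd14 have r of 0.87 and 0.72 with the shared gene Adgre1. With each other they have r of 0.54, which did not pass.

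The genes nearest to each member by the same r were named by a fixed count of 3. For Treml4 they were Nr4a1 (0.938), Creg2 (0.931) and Tnfrsf1b (0.901), a TNF receptor. For Nr4a1 they were Treml4, Rasa4 (0.880) and Creg2 (0.875), so the pair shared Creg2. Cd14 had Cfp (0.929), which encodes properdin of the complement system, Adam15 (0.907) and Rab11fip5 (0.899). Fn1 had Myof (0.942), Scarf1 (0.923), a scavenger receptor, and Pltp (0.901), a phospholipid transfer protein. F13a1 had Hpse (0.947), which encodes heparanase, Cab39 (0.945) and Wipf1 (0.941). Spn had Ikzf2 (0.899), Scd2 (0.879) and Ncapd3 (0.869), Csf1r had Kcnc4 (0.914), Flg (0.880) and Rhox9 (0.878), and Adgre1 had Kifc3 (0.930), Mlf1 (0.926) and Nxpe5 (0.925). Ace had Gnb5 (0.868), Olfr821 (0.856) and Dbndd2 (0.836), where Spearman's rho was only 0.581, 0.715 and 0.540. These r were the highest of 13666 and carry no test.

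The promoters of Treml4 and Nr4a1 are shown because the levels of these 2 genes were the closest pair. RefSeq promoter entries on build GRCm38.p6 were found for 5 members (7 entries), and the stretches shown are the 250 bases before the gene start. Both strands were searched for TGCGTCA, a variant of the cyclic AMP response element, for GAGGAA, a purine-rich core that PU.1 and other ETS factors bind, and for AAAGGTCA, the element that the Nr4a1 protein binds. Matches are in capitals, and a match on the other strand appears as its complement. The Nr4a1 stretch lies at chr15:101266596-101266845 and that of Treml4 at chr17:48264045-48264294, both on the plus strand.
Nr4a1 promoter: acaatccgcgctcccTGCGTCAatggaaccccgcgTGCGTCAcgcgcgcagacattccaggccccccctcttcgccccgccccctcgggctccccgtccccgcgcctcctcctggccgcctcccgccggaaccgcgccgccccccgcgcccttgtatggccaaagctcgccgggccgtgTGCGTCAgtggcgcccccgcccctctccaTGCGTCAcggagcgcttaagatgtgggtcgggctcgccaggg
Treml4 promoter: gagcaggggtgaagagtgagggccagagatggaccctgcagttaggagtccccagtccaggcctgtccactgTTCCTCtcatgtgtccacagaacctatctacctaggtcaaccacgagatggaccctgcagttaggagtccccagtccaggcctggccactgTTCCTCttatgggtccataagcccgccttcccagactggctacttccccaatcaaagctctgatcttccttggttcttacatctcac

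The stretch of Nr4a1 holds 4 copies of TGCGTCA, 0 of GAGGAA and 0 of AAAGGTCA. Of 32851 promoters searched over the same length, 1.75% hold TGCGTCA at least once and 1 holds it 4 times or more, which is that of Nr4a1. The stretch of Treml4 holds 2 copies of GAGGAA, 0 of TGCGTCA and 0 of AAAGGTCA, and 23.3% of promoters hold GAGGAA at least once and 3.54% at least 2 times. Among the other members an entry of Ace also holds 2 copies of GAGGAA and an entry of F13a1 holds 1. AAAGGTCA is held by 1.34% of promoters. The letters searched are thus not shared by these 2 stretches, and no binding was measured. These motifs were chosen by hand, so the counts beside all promoters carry no test.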

How the data were processed

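Blood RNA was measured on 18 one-colour Agilent mouse arrays. Each deposited intensity is the processed signal of a spot, per the file headers a value corrected for background and spatial trend in Agilent Feature Extraction 9.5.3.1. A further table deposited by the authors has a median intensity of 20.7 on every array, and the steps behind it are not given in the sources used here. When sorted, at least 99.6% of its values on each array lie within 1% of those on the first. Its arrays thus share nearly the same distribution, which is what quantile normalization produces. From the log2 intensity of each probe, averaged over its spots, the 75th percentile over all probes but controls was subtracted, and 45 outlier values were left out. Of 41174 probes 22038 were well above background on at least 5 arrays and were kept, and the brightest stood for its gene, which left 13677 genes. Symbols were updated with a RefSeq table. In limma 3.58.1 (R 4.3.3), all 18 arrays entered 1 model with dose and kit as terms (2-sided, Benjamini-Hochberg over all genes). The same model was also run on simulated data, which had independent noise and no kit or slide effect. The number of arrays limits the precision.

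The members and lists were chosen with earlier results of these data known. Named beside the members were the 4 measured genes of each list with the smallest p at 8 Gy and the 3 genes nearest to each member. Lists without values in the text were an eosinophil list, where 1 of 4 measured genes fell at 8 Gy (Il5ra) and none rose, and an erythroid list, where 0 of 7 passed (4 at an unadjusted p under 0.05, and 1 passed without 0 Gy replicate 5). The closing section gives the effect of 17 alternatives and of leaving out each array.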

Additional observations from a re-analysis of the deposited data

Results flagged for a closer look

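One value lay far from its group. Nr4a1 had a level of 6.35 on the array 8 Gy replicate 2, against 5.46 on the next highest array at 8 Gy, a gap of 0.657 of the group's whole range. Chance flags about 1 in 20 groups by this measure, and 27 groups of member values were looked at. The same array also had the highest Treml4 (5.26) and Csf1r (5.27) at 8 Gy. Without it the difference of Nr4a1 at 8 Gy was -0.17, and with it 0.03, and neither passed.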

How the results depend on the processing

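The number of members called at 8 Gy, 0 as reported, was 1 (Spn) under quantile normalization, normexp, the deposited table and array weights. These called 8.37%, 15.1%, 8.35% and 34.8% of all genes, against 11.9% as reported. The number was also 1 (Spn) in both fits without doubted arrays, which were chosen after seeing the data. Those fits called 13.5% of all genes without 0 Gy replicate 4 and 2 Gy replicate 3, and 25.9% without all 3. At 2 Gy the number of members called was 4 with array weights (F13a1, Fn1, Ace and Adgre1). It was 2 without all 3 doubted arrays (Ace and Fn1), where 2459 of 13677 genes were called. It was 0 to 1 when single arrays were left out, the 1 being Ace without 0 Gy replicate 5, where 962 genes were called. Under the other alternatives the number of members called was 0 at both doses, and between 8 and 2 Gy it was 0 throughout. Array weights called 4762 genes of the whole table at 8 Gy and 4373 at 2 Gy, and slide as a fixed term or brightness as a covariate called 0 (1179 and 1850 at an unadjusted p under 0.05 at 8 Gy). The cause was not tested. Across all alternatives the classical minus patrolling value had a range of -0.11 to 1.03 for 8 Gy, while the range for 2 Gy was -1.59 to -0.55.

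The sign of some small differences turned. Quantile normalization and the deposited table are close to 1 processing and are not separate results here. At 8 Gy, Treml4, Nr4a1 and Adgre1 were -0.11, -0.40 and -0.14 with quantile normalization, -0.11, -0.39 and -0.14 in the deposited table, and -0.38, -0.59 and -0.37 with normexp, where Ace was -0.07 and Csf1r -0.21. Ace was -0.23 as the mean over probes, -0.16 without the kit term, -0.09 with brightness and -0.09 on RiboPure arrays. Fn1 was 0.38 without the kit term and 0.35 with brightness, where Nr4a1 was -0.15. With slide as a fixed term Cd14 was -0.20 and Adgre1 -0.13. With array weights Nr4a1, Csf1r and Adgre1 were -0.13, -0.17 and -0.39. Without 0 Gy replicate 4 and 2 Gy replicate 3 Nr4a1 was -0.13, and without these and 0 Gy replicate 5 Adgre1 was -0.01. At 2 Gy, Nr4a1 was -0.26 (quantile), -0.23 (normexp), -0.26 (deposited table) and -0.11 (brightness), and Csf1r was -0.08, -0.17, -0.08 and -0.06 in the same order, -0.09 as the mean over probes, -0.04, -0.44 and -0.03 with slide as a random block, slide as a fixed term and scan day as a random block. None of these passed.

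When single arrays were left out, the difference at 8 Gy ran from -0.62 to 0.26 for Fn1, from -0.09 to 0.32 for Ace, from -0.17 to 0.17 for Nr4a1 and from -0.02 to 0.60 for Adgre1, and at 2 Gy from -0.74 to 0.19 for Cd14, from -0.07 to 0.22 for Nr4a1 and from -0.08 to 0.28 for Csf1r.

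With the replicate number as a replicate block 0 members were called in each comparison, 247 genes of the table were called at 8 Gy and 70 at 2 Gy, and the classical minus patrolling values were 0.57 and -0.81. The arrays share only a number: over 16 pairs with the same number the deviations had r from -0.34 to 0.48, with a median of 0.10.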
